A study of Mus musculus with 24 samples.

Results

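The cytosolic ribosomal protein genes were taken as every symbol of both RNA-seq count tables that begins with Rpl or Rps and a digit, or is Rplp0, Rplp1, Rplp2 or Rpsa. Pseudogene symbols and the S6 kinases were left out. This rule found 88 of 24421 symbols, 53 named for the large and 34 for the small subunit. The remaining symbol, Rps19bp1, encodes a protein that binds Rps19 and is not itself part of the ribosome. Of the 87 others, 77 are core genes (46 large, 31 small), and 10 are paralogs or retrotransposed copies such as Rpl22l1 and Rps27l.

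The series concerns FTO, an RNA demethylase that removes N6-methyladenosine (m6A), in B16-OVA, a C57BL/6 mouse melanoma line that makes ovalbumin. Tumour cells carried a short hairpin against Fto (shFto) or a control hairpin (shNC), were kept in puromycin, and were sequenced as 3 RNA libraries a group; the labels do not say which of the 2 Fto hairpins the tumour libraries carry, or whether a line is 1 clone. OT-I CD8+ T cells, whose transgenic receptor recognises ovalbumin, were isolated as naive cells from C57BL/6 animals, kept for 8 h with IL-2 beside B16-OVA cells of the lines shNC, shFto-1 or shFto-2, and then sorted, with 2 libraries a group. The T cells themselves carried no hairpin by the labels. ATAC-seq covered 3 shFto and 3 shNC tumour libraries, and m6A-seq 1 antibody and 1 input library each for shNC cells in DMSO, shFto cells in DMSO, and shNC cells given 5 µM Dac51, an FTO inhibitor, for 48 h. Whether replicates are separate cultures or animals is not in the labels, and the spread behind each p-value may thus be technical.

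A ribosome is built of a small subunit, which reads the mRNA, and a large subunit, which joins amino acids. Each ribosomal protein is present in about the same number as the ribosomes that hold it, and its mRNA is among the most abundant of a growing cell. Most of these mRNAs begin with a C followed by a run of pyrimidines, the terminal oligopyrimidine tract, through which mTOR and the binding protein Larp1 set their translation. T cells that meet antigen are known to raise ribosome production.

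Total counts ranged from 11152404 to 19665589 in the tumour libraries and from 2628158 to 13066355 in the T cell libraries, with the lowest depth in shNC T cells replicate 1. Fto was at 31.7, 33.5 and 28.3 CPM (counts scaled to library size, with edgeR's TMM factors) in shFto tumour cells and at 107, 108 and 91.8 in shNC cells, and did not pass the test in T cells (log2 fold change 0.09, edgeR quasi-likelihood adjusted p = 0.648). The 7 melanocyte markers summed to between 12700 and 16700 CPM in tumour libraries, and 10 T cell markers to between 3.65 and 6.37, with 8 or 9 of them at 0. In the T cell libraries those 10 markers summed to 5030 to 5100 CPM beside shNC, 4590 to 4660 beside shFto-1 and 4060 to 4430 beside shFto-2 cells, so their sum was lower in every T cell library beside an shFto line. All 7 melanocyte markers were detected there too, at a sum of 1070 to 1400 CPM beside shNC, 1490 to 1640 beside shFto-1 and 1480 to 1590 beside shFto-2 cells. Those sums are 8.25% and 10.8% of the level in the matching tumour cells beside shNC, and 9.17% to 10.2% beside the shFto lines. The part of tumour RNA in the T cell results was not tested. B cell, myeloid and NK cell markers summed to at most 10.4 CPM in any library. The sum of 5 fibroblast and endothelial markers in T cell libraries was nearly all Pecam1, which T cells also express, at 160 and 127 CPM beside shNC, 79.3 and 77.4 beside shFto-1 and 55.1 and 33.1 beside shFto-2 cells; the other 4 were each at most 4.96 CPM.

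Ribosomal protein genes took a smaller share of the RNA counts in shFto than in shNC tumour cells. Their share of a library's total was 4.84%, 4.58% and 5.27% with shFto and 5.89%, 5.72% and 7.11% with shNC, so the groups did not overlap, and shNC replicate 3 stood highest. The group means were 4.9% ± 0.348 and 6.24% ± 0.758 (SD, n = 3 each). Their difference was -0.908 percentage points without shNC replicate 3 and -1.6 at its widest with any other library left out. In T cells the share was 9.89% and 8.39% beside shFto-1, 7.59% and 7.6% beside shFto-2, and 8.12% and 7.27% beside shNC cells. Here the shFto-2 libraries lay between the shNC libraries. The share of each subunit was lower in every shFto than in every shNC tumour library. The ratio of large to small subunit counts was 1.51 to 1.53 in shFto and 1.54 to 1.56 in shNC tumour cells. It was higher in T cells, at 1.63 in both shNC libraries and 1.66 to 1.72 beside the shFto lines.

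**Figure D1:**
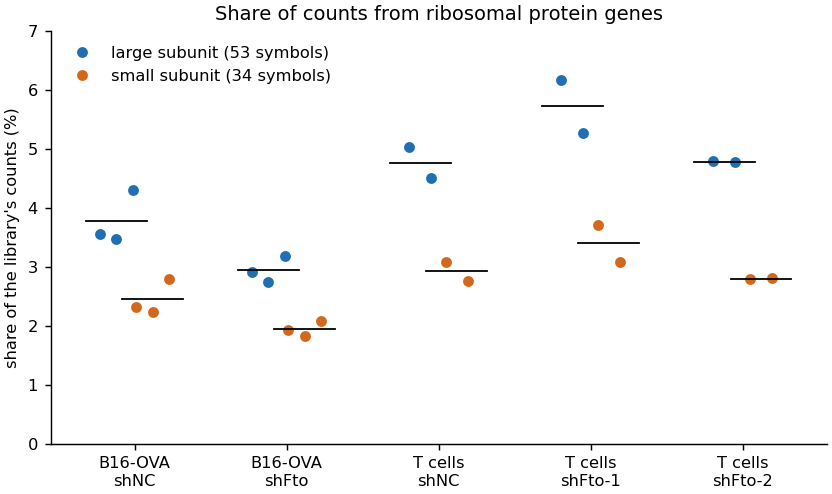
Share of each RNA-seq library's total count (percent, vertical axis) from large subunit (blue) and small subunit (orange) genes, in 5 groups (horizontal axis; T cell groups are named by the tumour line beside them). Points are libraries and bars group means; in tumour cells every shFto point of a subunit lies below every shNC point, while the shFto-2 and shNC T cells overlap.

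Start sites came from RefSeq's promoter table for GRCm38.p6, which matched 67 of the 88 symbols, 57 of them core genes. The sequences below run from 15 bases before the annotated start to 15 bases from it, on the gene's own strand and 5′ to 3′, and show that genes with and without a pyrimidine run are found among those that fell and those that did not pass the test in tumour cells. Capitals mark a C followed by C or T bases, at least 5 bases in all, read from a C within 10 bases of the start on either side. Rps6, Rpl18, Rpl7a and Rps2 (with a run) and Rpl27, Rpl37 and Rplp0 (without) were lower in shFto tumour cells; Rpl38 and Rpl31 (with a run) and Rpl4 and Rps25 (without) did not pass the test.
Rps6, chr4:86857353-86857382, minus strand: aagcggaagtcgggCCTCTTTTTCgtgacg
Rpl18, chr7:45718056-45718085, plus strand: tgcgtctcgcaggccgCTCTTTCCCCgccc
Rpl7a, chr2:26910792-26910821, plus strand: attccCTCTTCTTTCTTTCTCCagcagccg
Rps2, chr17:24720048-24720077, plus strand: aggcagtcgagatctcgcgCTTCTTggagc
Rpl38, chr11:114668565-114668594, plus strand: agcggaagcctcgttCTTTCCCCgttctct
Rpl31, chr1:39367836-39367865, plus strand: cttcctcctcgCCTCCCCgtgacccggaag
Rpl27, chr11:101442230-101442259, plus strand: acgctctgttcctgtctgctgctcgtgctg
Rpl37, chr15:5116598-5116627, plus strand: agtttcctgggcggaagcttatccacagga
Rplp0, chr5:115559452-115559481, plus strand: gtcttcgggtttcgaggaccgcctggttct
Rpl4, chr9:64173372-64173401, plus strand: ttccttttcctgtgggagcagccgggtaga
Rps25, chr9:44407699-44407728, plus strand: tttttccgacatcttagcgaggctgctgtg

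The run was found at 34 of 57 core genes (59.6%), against 37.3% of the 8949 genes tested in tumour cells that have a start in the table and 34.4% of all 27025. With at least 7 bases it was found at 27 of 57 (47.4%), against 15.4% of the tested genes. Large and small subunit genes held it about equally, in 20 of 34 and 14 of 23. Only the gene's strand was searched and no other motif. The search began 10 bases before the start: the Rpl7a run goes on upstream of its capitals, and the Rpl4 window holds pyrimidines further upstream of which too few lie inside the search to count. Annotated starts can miss the one in use by several bases, so a gene without capitals is only one with no such run begun inside the search. In tumour cells the median log2 fold change was -0.35 over the 34 core genes with the run, of which 18 fell, and -0.31 over the 22 tested without it, of which 14 fell.

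In tumour cells, ribosomal protein genes were mostly lower with the Fto hairpin. Of 82 tested, 46 fell and 1 rose, where 16.9% of all 11718 tested genes fell and 15.9% rose (edgeR quasi-likelihood test, Benjamini-Hochberg adjusted p under 0.05). The 6 not tested, at or near 0 counts, were Rpl26, Rpl10l, Rpl39l, Rpl3l, Rps27rt and Rps4l. The median log2 fold change was -0.34, against -0.0028 over all tested genes. It was -0.36 for large subunit genes, of which 29 of 49 fell, and -0.27 for small subunit genes, of which 16 of 32 fell. The values of shFto and shNC libraries did not overlap for 46 lower members and 1 higher, against 22.7% and 22.5% of all tested genes. Without shNC replicate 3 the median was -0.21 and 39 members fell.

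**Figure D2:**
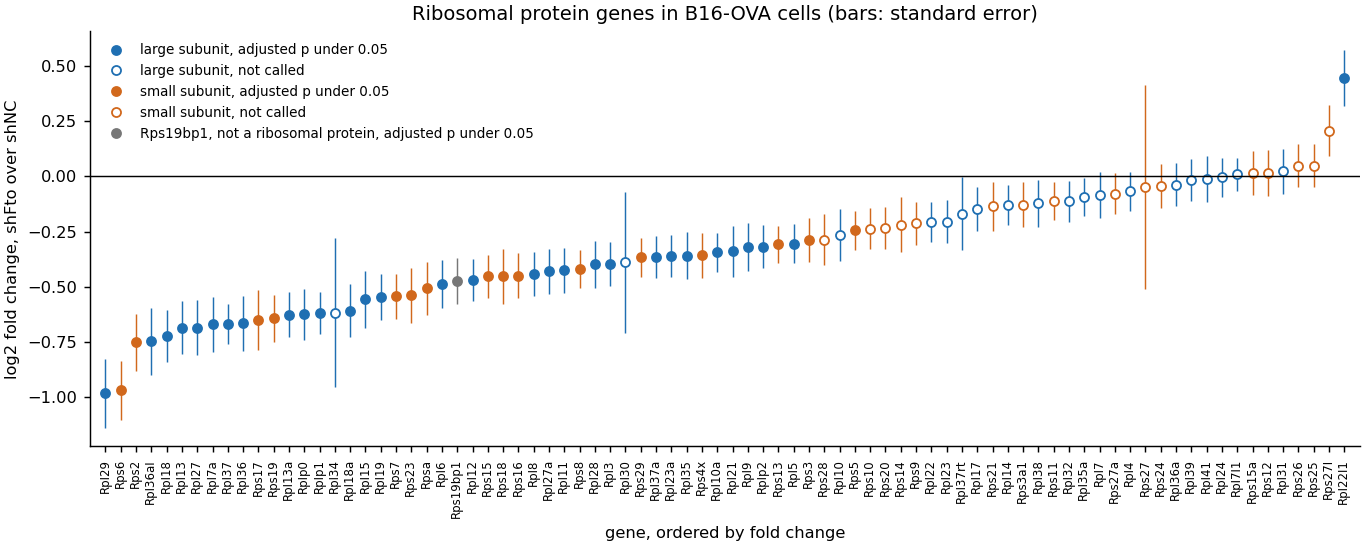
Log2 fold change of shFto over shNC tumour cells (vertical axis) with its standard error for the 82 tested genes, ordered by size (horizontal axis); blue is large subunit, orange small subunit, grey Rps19bp1, and filled points passed adjusted p under 0.05. Values run from -0.98 for Rpl29 to 0.45 for Rpl22l1, and 74 of 82 lie below 0.

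Among the genes that fell most, Rpl29, a large subunit protein, was at 338, 229 and 440 CPM in shFto and 605, 597 and 793 CPM in shNC tumour cells, and fell by 0.98 on the log2 scale (SE 0.156, adjusted p = 0.000104 by edgeR). Rps6, the small subunit protein that S6 kinases phosphorylate downstream of mTOR, was at 717, 581 and 971 CPM against 1425, 1345 and 1679 (log2 fold change -0.97, SE 0.133). All 3 shFto libraries lay below all 3 shNC libraries for both genes, with replicate 2 the lowest of the shFto group. Rps2, a small subunit protein near the mRNA entry channel, was at 1090, 1084 and 1611 CPM against 2088, 1853 and 2435 (log2 fold change -0.75, SE 0.129, edgeR adjusted p = 0.000213). Rpl36al, the autosomal copy of the X-linked Rpl36a, was at 91.7, 67.4 and 121 CPM against 143, 134 and 196 (log2 fold change -0.75, SE 0.152, edgeR adjusted p = 0.000958). Neither pair of groups overlapped.

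The stalk of the large subunit, which recruits the translation GTPases, is made of Rplp0, Rplp1 and Rplp2, and all 3 fell in tumour cells. Rplp0 was at 1470, 1237 and 1830 CPM in shFto and 2240, 2191 and 2573 CPM in shNC cells, and fell by 0.63 on the log2 scale (SE 0.115). Rplp1 was at 974, 1061 and 1151 CPM against 1454, 1644 and 1802, and fell by 0.62 (SE 0.0949). No shFto library of either gene reached the lowest shNC library. Rplp2 fell least, by 0.32 on the log2 scale (SE 0.0962, edgeR adjusted p = 0.0154), and missed the threshold without shNC replicate 3 (adjusted p = 0.065 by edgeR) or shFto replicate 1 (0.117).

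Rpl5 and Rpl11 form a particle with 5S rRNA that can bind and inhibit Mdm2, the ligase of p53. Rpl11 was at 572, 508 and 634 CPM in shFto and 711, 690 and 905 CPM in shNC tumour cells, without overlap, and fell by 0.43 on the log2 scale (SE 0.104, edgeR adjusted p = 0.004). Rpl5 fell by 0.3 on the log2 scale (SE 0.0878, edgeR adjusted p = 0.0116), a call lost without shFto replicate 1 (0.0604) or 2 (0.052). Mdm2 itself rose by 0.41 (SE 0.0768, edgeR adjusted p = 0.000437).

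Proteins near the catalytic centre of the large subunit differed among themselves. Rpl3, which reaches into the peptidyl transferase centre, fell by 0.4 on the log2 scale (SE 0.0991, edgeR adjusted p = 0.00462). Rpl4, which lines the exit tunnel, was at 1504, 1579 and 1457 CPM in shFto and 1560, 1472 and 1728 CPM in shNC tumour cells; the groups overlapped, and its log2 fold change was -0.07 (SE 0.0872). Rpl10, which joins last and permits subunit joining, was at a log2 fold change of -0.26 (SE 0.119, edgeR adjusted p = 0.0948). Rpl39, in the exit tunnel, and Rpl41, a very short protein at the subunit interface, were at -0.02 and -0.01. Rpl13a, known from a translational silencing complex in myeloid cells, fell by 0.63 (SE 0.102), and Rpl10a, on the L1 stalk, by 0.34 (SE 0.0898). Rpl38, known for its part in translating Hox mRNAs, and Rpl23, which like Rpl5 and Rpl11 can bind Mdm2, did not pass the test, at -0.12 and -0.2.

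Other small subunit members spanned the same range. Rps19, mutated in Diamond-Blackfan anaemia, was at 538, 506 and 644 CPM in shFto and 812, 792 and 1035 CPM in shNC tumour cells, without overlap, and fell by 0.64 on the log2 scale (SE 0.107). Rpsa, also known as the laminin receptor, fell by 0.51 (SE 0.119), and Rps3, at the mRNA entry, by 0.29 (SE 0.1). The Rps3 call was lost without shNC replicate 3 (log2 fold change -0.15, edgeR adjusted p = 0.15), without shFto replicate 1 (0.12) or 2 (0.0553), and with scaling to library totals (0.0634). Rps10 and Rps20, which are ubiquitinated when ribosomes collide, were at -0.24 and -0.23 with edgeR adjusted p-values of 0.0553 and 0.0635. Rps25, needed by some viral internal entry sites, was at 483, 522 and 427 CPM against 434, 422 and 528, with overlapping groups and a log2 fold change of 0.05 (SE 0.0967). Rps27a, made as a fusion with ubiquitin, was at -0.08 (SE 0.0932), and Rps14, by the platform of the small subunit, at -0.22.

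**Figure D3:**
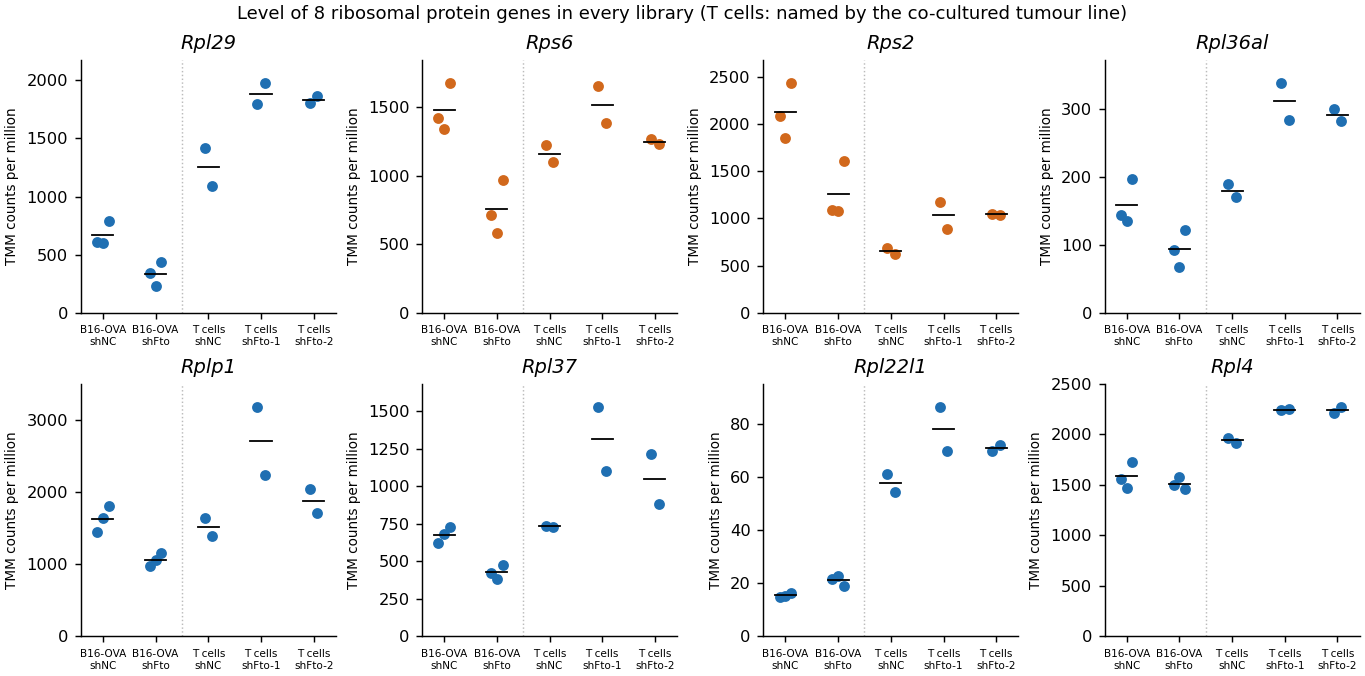
TMM-scaled CPM (vertical axes, from 0) of 8 ribosomal protein genes in every RNA-seq library of the 5 groups (horizontal axes); points are libraries, bars group means, and tumour and T cell tables (either side of the dotted line) were scaled separately. Rpl29, Rps6, Rps2, Rpl36al, Rplp1 and Rpl37 are lower in shFto than in shNC tumour cells, Rpl22l1 is higher and Rpl4 overlaps.

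In T cells the genes of the set that passed the test were all higher beside shFto tumour cells. Of 83 tested, 26 rose and none fell when both shFto lines together were set against shNC, where 20.3% of 12824 tested genes rose and 12.7% fell (edgeR, adjusted p under 0.05). The median log2 fold change was 0.25, against -0.0097 over all tested genes. It was 0.29 for large subunit genes, of which 20 of 49 rose, and 0.21 for small subunit genes, of which 5 of 33 rose. The share that rose was thus above the background for large and below it for small subunit genes. For 35 members both shFto groups lay wholly above shNC, against 28.2% of all tested genes. The number of rises was less stable than the number of falls in tumour cells: it was 15 without shNC replicate 2, 42 without shFto-1 replicate 2, 41 with a replicate block and 13 with scaling to library totals. Library totals moved the median of all genes to -0.18 and that of the members to 0.08. In the same comparison 7 of the 10 T cell markers fell and 2 rose (median -0.39). Of the 7 melanocyte markers 3 rose and none fell, and their sum was higher beside both shFto lines. As a share of the level in the matching tumour cells, the sums overlapped: 8.25% and 10.8% beside shNC, 9.17% to 10.2% beside the shFto lines. The part of these markers' cells in the rises was not tested. In bulk RNA, fewer cells of a type and less RNA per cell cannot be told apart.

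The largest rise, by 1.07 on the log2 scale (SE 0.112, edgeR adjusted p = 9.41e-05), was that of Rps19bp1, also called AROS, which is an activator of the deacetylase SIRT1. It was at 107 and 106 CPM beside shFto-1, 107 and 128 beside shFto-2, and 52.1 and 54.1 beside shNC cells. Rpl7l1, a paralog of Rpl7 with a role in large subunit assembly, was at 293, 269, 308 and 321 CPM against 142 and 160, a log2 fold change of 0.97 (SE 0.0919, edgeR adjusted p = 6.07e-05). Neither gene's shFto libraries reached down to the shNC level. Rpl36al was at 338, 284, 299 and 282 CPM against 189 and 170 (log2 fold change 0.75, SE 0.102). Rpl37, a zinc-binding large subunit protein, was at 1531, 1102, 1213 and 882 CPM against 739 and 728 (log2 fold change 0.68, SE 0.152). These 4 genes passed under every alternative computed.

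Among the role groups, Rplp0 rose by 0.41 and Rplp1 by 0.57 on the log2 scale, while Rplp2 was at 0.34 with an edgeR adjusted p of 0.1. The Rplp0 and Rplp1 calls were lost in DESeq2 (adjusted p = 0.199 and 0.0636) and without shNC replicate 2 (0.2 and 0.0751 by edgeR); that of Rplp0 was also lost with library totals (0.156) and without shFto-2 replicate 1 (0.0686). Rpl11 rose by 0.32 (SE 0.0901, edgeR adjusted p = 0.0194), a call lost with library totals (0.212) and without shFto-2 replicate 2 (0.0647), shNC replicate 1 (0.0701) or 2 (0.0746), and Rpl5 was at 0.25 (edgeR adjusted p = 0.0625). Rps2 rose by 0.68 (SE 0.112, edgeR adjusted p = 0.00117), from 684 and 620 CPM beside shNC to between 892 and 1178 CPM beside the shFto lines. Rps27a rose by 0.51 (SE 0.099), from 810 and 786 CPM to between 1049 and 1376 CPM. Rps6 was at 1657, 1385, 1268 and 1233 CPM against 1227 and 1099, a log2 fold change of 0.25 that missed the threshold (SE 0.0912, edgeR adjusted p = 0.0634).

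The 2 shFto lines were also each set against the same shNC libraries. Beside shFto-1 cells 38 of 83 members rose and none fell (median log2 fold change 0.43, background 15.4% higher and 6.84% lower). Beside shFto-2 cells 16 of 83 rose and none fell (median 0.13, background 20.4% higher and 13.3% lower). The share that rose was thus above the background beside shFto-1 cells and no higher than the background beside shFto-2 cells. Rps19bp1 and Rpl7l1 led both, at 1 and 0.89 beside shFto-1 and 1.14 and 1.05 beside shFto-2 cells. Next came Rpl37 (0.85) and Rplp1 (0.83) beside shFto-1, and Rpl36al (0.7) and Rps2 (0.68) beside shFto-2 cells. The number of rises beside shFto-1 was 12 without shFto-1 replicate 1, the library with the highest member share, and 18 without shNC replicate 2. Beside shFto-2 cells it was 8 without shFto-2 replicate 1, 7 without shFto-2 replicate 2 and 8 without shNC replicate 2. With library totals the shFto-2 median turned to -0.04. Set directly against each other, shFto-2 and shFto-1 differed at no member by edgeR (median -0.28; background 1.42% lower and 0.491% higher), although 33 of 83 had an unadjusted p under 0.05 and DESeq2 called 8 lower.

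The log2 fold change was below 0 for 74 of 82 members in tumour cells and for 6 of 83 in T cells. By sign the 2 changes thus ran opposite ways for most members. By call, 18 of the 81 members tested in both were lower in tumour cells and higher in T cells. The T cell changes lay nearer 0 with library totals, as given above. The difference of the responses, tumour minus T cell, was below 0 for 80 of 84 members; 46 passed the test as lower and none as higher, where 15.8% of 15049 tested genes were lower and 11.7% higher (edgeR interaction, adjusted p under 0.05). The median difference was -0.57 on the log2 scale, against 0.07 over all tested genes. It was -0.67 for large and -0.47 for small subunit genes, with 30 of 50 and 15 of 33 passing. The number of members passing as lower was 29 without T cell shNC replicate 2. The 84 include Rpl10l and Rps4l, which had no counts in tumour cells and passed the filter only through the T cells. Of the 76 core genes tested, which leave both out, 43 were lower and none higher. Cell type, co-culture, sorting and table all differ between the 2 responses and cannot be told apart.

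Rpl29 gave the lowest value, -1.52 (SE 0.257, edgeR adjusted p = 0.000331): it fell by 0.98 in tumour cells and rose by 0.57 in T cells. Rps19bp1 followed at -1.51 (SE 0.177), Rpl36al at -1.47 (SE 0.259) and Rps2 at -1.4 (SE 0.214). Rpl34 stood at -1.49 with a wide error (SE 0.536, edgeR adjusted p = 0.0495) on 204 counts in all tumour and 248 in all T cell libraries, and it missed the threshold with library totals (0.0867) and when any 1 of 10 of the 12 libraries was left out. Over the 81 members tested in both tables, 18 both fell in tumour cells and rose in T cells. They are 39.1% of the 46 that fell and 69.2% of the 26 that rose. Over all 10636 genes tested in both, 598 did both, 32.1% of the 1861 that fell and 24.2% of the 2474 that rose. These shares depend on how many genes changed at all, and members fell in tumour cells far more often than other genes. They are thus no measure of a link between the 2 changes. Gene by gene the 2 changes were only weakly related (Pearson r -0.17, Spearman rho -0.21 over 81 genes of the same libraries, which are not independent points).

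**Figure D4:**
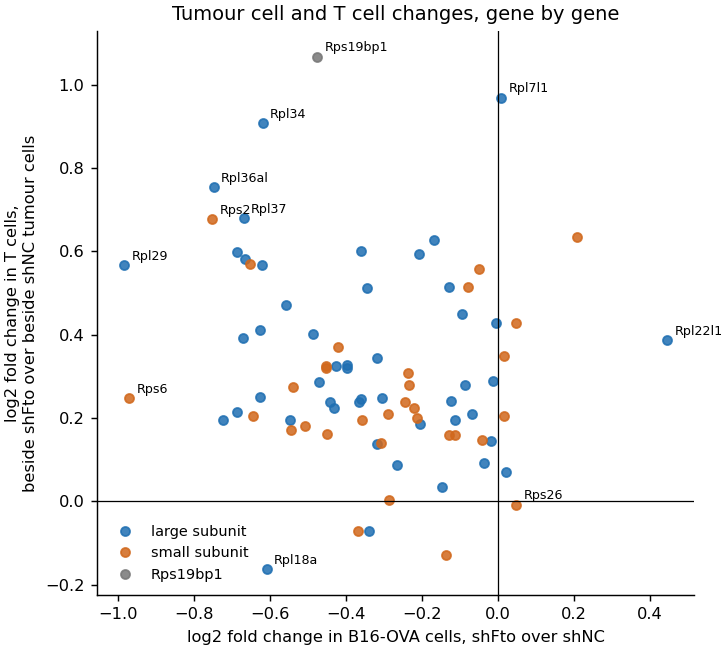
Log2 fold change in tumour cells (shFto over shNC, horizontal axis) against that in T cells (beside either shFto line over beside shNC cells, vertical axis) for the 81 members tested in both; blue is large subunit, orange small subunit, grey Rps19bp1. Most points lie in the upper left, lower in tumour cells and higher in T cells; Rpl22l1 is higher in both.

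The control groups show how the set differs between shNC tumour cells and T cells kept beside shNC cells. Cell type, culture, sorting, experiment and table all differ between these groups and cannot be told apart. Of 84 members tested in the joined tables, 49 were lower and 9 higher in shNC tumour cells than in T cells beside them, where 42.2% of 15049 tested genes were lower and 34.7% higher (edgeR, adjusted p under 0.05). The share lower thus lay above the background and the share higher below it. The median log2 difference was -0.51, against -0.21 over all genes; with library totals it was -0.29, with 41 lower and 16 higher. Tumour libraries lay wholly below T cell libraries for 53 members and wholly above for 9, against 43.2% and 39.3% of all tested genes. Large (30 of 50 lower) and small subunit genes (19 of 33) were alike. The 84 tested and the 49 lower include Rpl10l and Rps4l, which had no counts in tumour cells and passed the filter only through the T cells. Of the 76 core genes tested, which leave both out, 44 were lower and 7 higher. These T cell libraries hold the melanocyte RNA described above, and its part was not tested.

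Values here are CPM on the joint scale. Rpl22l1 was at 13.1, 13.5 and 14.2 in tumour cells and 68.2 and 62 in T cells, a log2 difference of -2.25 (SE 0.136, edgeR adjusted p = 2.46e-10). Rpl17, an outer protein at the tunnel exit, was at 376, 369 and 494 against 1417 and 1600 (log2 difference -1.87, SE 0.155). Rpl36a was at 123, 115 and 146 against 442 and 462 (log2 difference -1.82, SE 0.126). No tumour library of these 3 genes came near a T cell library. Rpl5 was lower in tumour cells by a log2 difference of -1.66 (SE 0.103), while its partner Rpl11 was higher by 0.46 (SE 0.124). Rps2 was higher in tumour cells, at 1830, 1640 and 2141 against 764 and 709 (log2 difference 1.35, SE 0.169, edgeR adjusted p = 2.25e-06). Rps27l, a p53-responsive paralog of Rps27, was at 78.5, 79.6 and 102 against 23.5 and 40.3 (log2 difference 1.36, SE 0.235), and Rps19bp1 at 99.9, 93.4 and 124 against 58.2 and 61.9 (log2 difference 0.81, SE 0.141). Rpl30, given below with its few counts, had the highest log2 difference of the called members, and Rpl10l and Rps4l the lowest.

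Several members had few counts. Rpl10l and Rps4l had none in any tumour library and 12 and 15 counts in the shNC T cells, where they were at least 19.8-fold and 24.7-fold higher by a floor of 3 counts over the tumour group. The Rpl10l bound was 9.24-fold without T cell shNC replicate 1 and 46.2-fold without replicate 2. Both genes passed the filter only through the T cells. Rpl30 had 134 counts in shNC tumour cells and 2 in shNC T cells, a ratio of 13.5 with an exact 95% interval of 3.68 to 113. Rpl26 had 3 counts in all tumour and 3 in all T cell libraries, Rps27 had 120 and 219, and Rpl34 had 204 and 248. These core genes are known to be highly expressed in growing cells, and many ribosomal protein genes have near-identical pseudogenes: the reference lists 317 pseudogenes named for the 88 symbols, 23 of them for Rpl31. How reads that match several copies were counted is not given in the sources used here, so levels of single members are uncertain. Transcript lengths were not used here, and levels are not compared between genes.

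Paralogs did not follow their parents in every group. Rpl22l1 made up 5.26%, 5.41% and 4.79% of Rpl22l1 and Rpl22 counts in shFto tumour cells and 3.5%, 3.53% and 3.03% in shNC cells, without overlap. It was the only member to rise in tumour cells, by 0.45 on the log2 scale (SE 0.127, edgeR adjusted p = 0.0109), and missed the threshold without shFto replicate 1 (adjusted p = 0.054 by edgeR). Rpl22 was at -0.21 (SE 0.0906, edgeR adjusted p = 0.0843). Rpl22 protein is known to repress Rpl22l1. In T cells the Rpl22l1 share was 6.35% and 8.76% beside shNC, 5.36% and 7.08% beside shFto-1 and 5.61% and 8.21% beside shFto-2 cells, so these groups overlapped.

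Rpl36al made up 50.5%, 50.8% and 54.2% of Rpl36al and Rpl36a counts in shNC tumour cells and 40%, 29.5% and 48.8% in shFto cells, where replicates differed more than in any other group. In T cells its share was 32.3% and 29.5% beside shNC and 39.6% to 43.6% beside the shFto lines. The share thus lay lower with shFto in tumour cells and higher with shFto in T cells. Rpl7l1 made up 9.45% and 12.1% of Rpl7l1 and Rpl7 counts in T cells beside shNC, and 15.1% to 17.4% beside the shFto lines; in tumour cells it was 18.7% to 21% with shFto and 16.9% to 20.5% with shNC. Rps27l made up 97.7% to 99.4% of its pair in tumour cells and 86.8% to 90.7% in T cells, where Rps27 itself is one of the genes with few counts. Rpl3l and Rpl39l, paralogs known from muscle and testis, had at most 10 counts in a library.

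**Figure D5:**
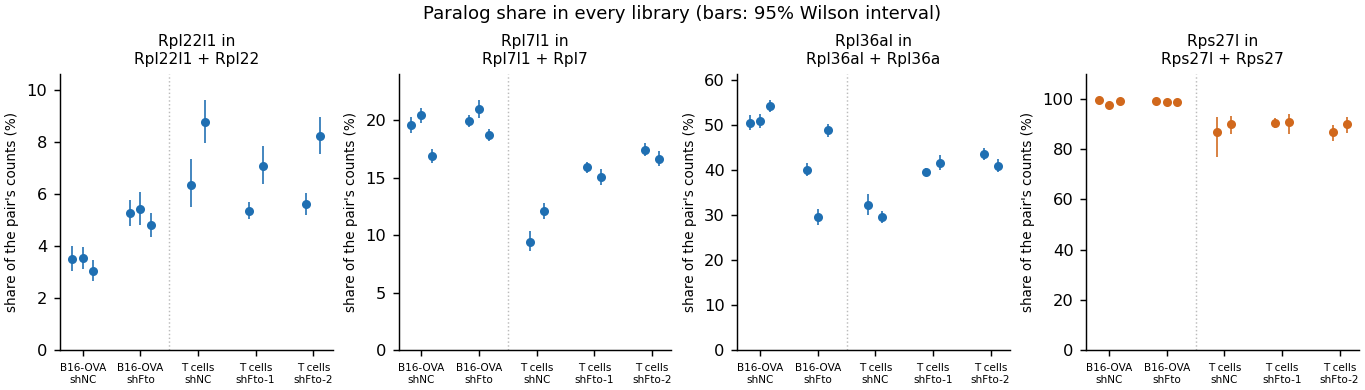
Share of a paralog in the counts of paralog and parent (percent, vertical axes, from 0) in every RNA-seq library of the 5 groups (horizontal axes), with 95% Wilson intervals that cover counting error only. The Rpl22l1 share is higher in shFto than in shNC tumour cells, and the Rpl7l1 and Rpl36al shares are higher in T cells beside shFto lines than beside shNC cells.

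Among ribosomal proteins under other symbols, Fau, a fusion that yields eS30, fell by 0.63 in tumour cells (SE 0.099), while Gnb2l1 (Rack1) was at 0.01. In T cells Gnb2l1 rose by 0.38 (SE 0.127), a call lost in DESeq2 (adjusted p = 0.211), with library totals (0.198) and without shNC replicate 2 (0.249 by edgeR) or replicate 1 of either shFto line (0.0609 and 0.0857), and Fau did not pass (0.25). A list of 20 genes whose mRNAs are known for pyrimidine tracts holds mostly translation factors, and Gnb2l1 again. Of these, 5 fell and 1 rose in tumour cells, where 16.9% of all tested genes fell and 15.9% rose. The falls with the smallest adjusted p included Eef1d, at -0.34, and Eef1g, at -0.41, both subunits of the elongation factor that recharges eEF1A. In T cells, where 20.3% of all tested genes rose and 12.7% fell, 15 of the 20 rose and 1 fell. Npm1, a nucleolar chaperone, rose by 1.13 (SE 0.0746), Nap1l1, a histone chaperone, by 0.93 (SE 0.0824), and Eef1d by 0.94 (SE 0.101), while Tpt1 fell by 0.26 (SE 0.0765, edgeR adjusted p = 0.0255).

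Of 20 regulators of ribosomal protein mRNA, 3 fell and 4 rose in tumour cells, shares near the same 16.9% and 15.9% of all tested genes. In T cells 11 rose and 2 fell (20.3% and 12.7% of all tested genes). Rptor, the mTORC1 scaffold, fell by 0.42 in tumour cells (SE 0.0805) and rose by 0.53 in T cells (SE 0.105). Rictor, its mTORC2 counterpart, rose by 0.4 in tumour cells (SE 0.0759) and fell by 0.6 in T cells (SE 0.0949). Larp1 rose by 0.82 and Eif4e, the cap-binding protein, by 1.07 in T cells; in tumour cells they were at 0.07 and 0.15. The list of chaperones and importers of ribosomal proteins holds 15 genes, and also counts Mdm2 and Mdm4 among them. Nap1l1 and Btf3 are in the pyrimidine-tract list as well. Of the 15, 3 fell and 5 rose in tumour cells (16.9% and 15.9% of all tested genes), and 12 rose and 1 fell in T cells (20.3% and 12.7%). Grwd1, which binds Rpl3, fell by 0.44 in tumour cells (SE 0.0873) and rose by 1.32 in T cells (SE 0.117), and Ipo4, an importin, fell by 0.35 and rose by 1.32. Ltv1, an assembly factor of the small subunit, rose by 1.2 in T cells (SE 0.0889) and was at 0.2 in tumour cells.

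A called ATAC-seq peak lay near the start of each of the 57 core genes with a start in the promoter table, in all tumour libraries. It lay within 500 bp of the start in all 6 libraries for 57 of 57 core genes and 62 of all 67 members with a start, against 92.1% of 8949 tested genes. The 5 members without one in every library were Rpl10l, Rpl37rt, Rpl39l, Rpl3l and Rps27rt. With the peak required to cover the start base, 54 of the 57 core genes had one in all 6 libraries, against 86% of tested genes. With a -log10 q of at least 10 it was 56, against 89.25%. The authors called peaks in each library, and the fold enrichment at the summit is their value. Its median over members was 16.3, 15.5 and 15.4 with shFto and 16.3, 16.5 and 15.9 with shNC, below the 17.6 to 18.7 of tested genes. Peaks numbered 67427 to 72055 with shFto and 74551 to 81944 with shNC. At Rps6 the fold was 26, 26.8 and 26.8 with shFto and 28.8, 26.7 and 27.8 with shNC; at Rps2 it was 22.3, 22.4 and 22.2 against 22.8, 23.6 and 21.5. The groups overlapped at both genes. Of the 62 members with a peak in all 6 libraries, 13 had all shFto folds below all shNC folds and 1, Rps19bp1, had them above, against 16.4% and 3.4% of 8245 tested genes with such peaks. At Rpl11 the fold was 23.3, 20.8 and 23.8 with shFto and 25.7, 25.6 and 26.9 with shNC, and at Rps13, a small subunit protein, 25.6, 24.8 and 26 against 28.3, 27.2 and 27.1. At Rps19bp1 it was 14.2, 16.2 and 15.7 against 13.1, 12.6 and 13.9. These 3 genes were chosen after their values were seen, and the shNC libraries also had more peaks called. Summits lay a median of 57.5 to 63 bases before the start.

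Few members had an m6A peak in tumour cells: 4 of 88 in the shNC list, 10 in the shFto list and 11 in the Dac51 list. That is 4.55%, 11.4% and 12.5% of all 88 symbols. Of the 82 members tested in tumour cells it is 4.88%, 12.2% and 13.4%, against 44.2%, 53.6% and 49.9% of all genes tested there. There is 1 antibody and 1 input library a condition, so these are descriptions of 3 lists with no replicate. The lists hold 8479, 10811 and 9850 peaks; cut to 8479 peaks, the shFto list named 7 members and the Dac51 list 11. Leaving out Rps19bp1, the median fold of member peaks over input was 1.35, 1.82 and 1.7, against 5.05, 6.19 and 5.75 for all peaks.

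Rps19bp1, the symbol that is not a ribosomal protein, held the member peak of highest fold in each list, from chr15:80260614 to 80261088 in shNC cells at 8.39, to 80261313 in shFto cells at 13.6, and to 80261117 in Dac51 cells at 13.1. It and Rpl36al were the members with a peak in all 3 lists. The shFto and Dac51 lists shared 6 members that the shNC list lacked: Rpl14, Rpl22, Rpl27, Rpl37, Rpl4 and Rps24. Both lists are longer than the shNC list and name more genes of all kinds. The share of all tested genes with this pattern was not counted, so the 6 are no result about the members. Of the 6, Rpl27 and Rpl37 fell in tumour cells, and Rpl14, Rpl22, Rpl4 and Rps24 did not pass the test there. The Rpl4 peak, chr9:64178444-64178562, ends at the last base of the annotated gene and was at 1.98-fold in shFto and 2.74-fold in Dac51 cells. The Rpl14 peak in Dac51 cells, at 4.75-fold, was the only one of a ribosomal protein above 4-fold. Rpl41 and Rps2 were listed in shNC and not in shFto cells, at 1.35-fold and 1.2-fold.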

How the data were processed

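RNA-seq files hold whole-number counts per gene symbol, deposited for 6 tumour and 6 T cell libraries; STAR 2.7.0f, Bowtie2 2.3.5, Trim Galore 0.6.0, MACS2 2.1.3, Picard, deepTools and mm10 are named in the submitters' processing notes, without roles. The kit marks strand per the labels' protocols; the counting tool, annotation and strand setting are not given in the sources used here. Deposited ATAC-seq peak files hold, per library, a score, the authors' fold enrichment (a ratio), and −log10 p and q values. Deposited m6A peak lists hold the authors' p-value, their log10 as a score, and fold enrichment over input as a ratio.

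Counts were scaled by TMM, filtered by filterByExpr and tested with edgeR 4.0.16 (R 4.3.3), tables apart within a cell type and joined across cell types; an adjusted p under 0.05 over all tested genes was called. Standard errors came from the log2 fold change and its F statistic. On simulated counts with 200 changed genes, 90% of 2-fold changes were recovered in tumour cells (11608 genes), 64% in T cells (12104) and 48% between cell types (14469). Summaries used Python 3.11.15. Named genes were the 4 largest rises and falls among called members per comparison, a panel by role, the paralogs and parents, and up to 3 of smallest adjusted p per other list; genes named beside sequences, peaks and low counts were chosen after their values were seen. The 8 members highest per length could not be named without lengths. The members, lists and tests were chosen with earlier results of these data known, and Rpl37rt was classed as a paralog after the tables were seen. Same-numbered tumour libraries did not deviate together (r 0.014, 0.037 and -0.017). Same-numbered T cell libraries deviated together between shFto-1 and shFto-2 (r 0.368). They deviated oppositely between shNC and shFto-1 (r -0.324) and between shNC and shFto-2 (r -0.206). RefSeq coordinates are GRCm38.p6, the assembly of mm10. Alternatives were DESeq2 1.42.0, library totals, no filter, a replicate block, core members only, TMM without the members, the shNC groups alone, and each library left out.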

Additional observations from a re-analysis of the deposited data

Results flagged for a closer look

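The tumour and T cell responses to the Fto hairpin in tumour cells differed by an interaction test. Of 84 members tested, 46 were lower in the tumour response than in the T cell response and none higher by edgeR (adjusted p under 0.05). Rps19bp1, which is not a ribosomal protein, is among them. The 84 tested also hold Rpl10l and Rps4l, which had no counts in tumour cells. Over all 15049 tested genes, 15.8% were lower and 11.7% higher. By size, the log2 difference of the responses was -1.52 for Rpl29, -1.51 for Rps19bp1, -1.49 for Rpl34 and -1.47 for Rpl36al. Rpl34 rests on few counts. The melanocyte markers detected in all T cell libraries stand beside this difference, and their part in it was not tested.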

How the results depend on the processing

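With library totals in place of TMM, the median log2 fold change of the members fell to 0.082 in T cells of both shFto lines (13 members higher), to 0.26 beside shFto-1 (14 higher) and, with its sign turned, to -0.038 beside shFto-2 (6 higher, 3 lower). The same scaling gave -0.29 between cell types (16 higher) and -0.38 for the difference of the responses. Without a filter, 58 members rose beside shFto-1, 2 fell beside shFto-2, and 19 were lower in shFto-2 than in shFto-1. DESeq2 called 1 member lower beside shFto-2 and 8 between the lines. Among core members alone 0 rose in tumour cells. With a replicate block, 41 members rose in T cells of both lines, 1 fell beside shFto-2, and 5 were lower in shFto-2 than in shFto-1; in tumour cells 49 fell. The labels do not tie equal numbers together, so the block is only an alternative. With the shNC numbers crossed, chosen after seeing the data, 28 members rose in T cells of both lines. Counts under the alternatives, here and below, are of members only. The share of all tested genes called under each alternative is not given here. These counts show how far the member calls moved and do not set members against other genes.

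Leaving out 1 library at a time gave 0 to 2 members higher and 38 to 50 lower in tumour cells. It gave 15 to 42 higher in T cells of both lines, 12 to 52 beside shFto-1 (median 0.28 to 0.59) and 7 to 22 beside shFto-2 (0 to 3 lower). Between the lines 0 to 14 were lower (median -0.42 to -0.080), and 29 to 54 were lower in the tumour response (median -0.66 to -0.405). The share of counts in shFto minus shNC ranged from -1.6 to -0.908 percentage points in tumour cells and from 0.165 to 1.1 in T cells, the lowest without shFto-1 replicate 1. Where 1 library was left in a T cell group, it was assumed to vary like the others.

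At 4-fold or more, 2.27%, 1.14% and 1.14% of members had an m6A peak in the Dac51, shFto and shNC lists. The pyrimidine run was at 44.8% of members with at least 7 bases and at 38.8% when it had to begin within 3 bases. Of the tests of single genes under the alternatives, 3948 stayed on their side of the threshold, 136 gained a call and 183 lost it, and none that was called changed sign. The cause of these changes was not tested. In simulated counts 64% of 2-fold changes were recovered in T cells and 90% in tumour cells. The changed genes were drawn at random from all tested genes, while the members' median log2 fold change in T cells was 0.25. Recovery of members at changes of that size was not simulated. A missed call in T cells is therefore not read as no change.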
